A study of Homo sapiens with 6 samples.

Results

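The presentation of peptides by major histocompatibility complex (MHC) class I molecules was followed across 9 genes, chosen by symbol: *HLA-B*, *HLA-C*, *HLA-E*, *B2M*, *TAP1*, *TAP2*, *TAPBP*, *PSMB8* and *PSMB9*. They are 9 of the 46427 genes of the gene table and carry 21 of the 170322 transcripts of the transcript table. The cells were MDA-MB-231/RR, the radioresistant form of an established human breast cancer line of mesenchymal appearance. RNA libraries were made from them: there were 3 libraries of cells treated with ortho-topolin riboside (oTR) and melatonin together, called co-treated here, and 3 control libraries. oTR is the riboside of a plant cytokinin and melatonin is the hormone of the pineal gland. The study asked whether the combination acts on these cells with changes in their metabolites and transcripts. Doses, times and the vehicle are not stated in the labels, and cells given either compound alone were not analysed here. The labels do not say whether replicates were grown separately, so the p-values cover only the spread between these libraries, which may be technical. All libraries are of this line alone, and the labels name no added interferon.

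Every nucleated cell displays short peptides of its own proteins at the surface on class I molecules, where cytotoxic T cells read them. Peptides are cut by the proteasome, whose catalytic subunits PSMB5, PSMB6 and PSMB7 can be replaced by PSMB8, PSMB9 and PSMB10 to form the immunoproteasome. The transporter made of TAP1 and TAP2 moves the peptides into the endoplasmic reticulum. There tapasin (TAPBP) holds an empty class I molecule to the transporter until a heavy chain, such as HLA-B, HLA-C or HLA-E, and the light chain beta-2-microglobulin (B2M) have bound a peptide. Interferon gamma is the classical inducer of these genes in tumour cells, through IRF1 and the class I transactivator NLRC5.

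The 9 genes did not move as a block. *PSMB9*, *HLA-E*, *TAP1*, *TAPBP* and *B2M* were higher in co-treated cells, *TAP2* and *PSMB8* were lower, and *HLA-B* and *HLA-C* were not called. The largest difference was that of *PSMB9*, with 5.90 to 6.16 normalized CPM in co-treated cells and 3.55 to 4.12 CPM in control cells (n = 3 each). Normalized CPM are counts scaled to library totals that were adjusted by factors for composition. *HLA-E* averaged 129.6 ± 8.73 CPM in co-treated cells and 101 ± 4.86 CPM in control cells (SD, n = 3 each). The other called genes differed by less than 0.25 on the log2 scale. A gene was called at an adjusted p under 0.05 in edgeR's quasi-likelihood test, with Benjamini-Hochberg adjustment over all 16557 genes tested. Differences are log2 fold changes, co-treated minus control, with the standard error of the fit.

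All 9 genes passed the filter on low counts. Of them 5 were called higher and 2 lower. The background was high: of all genes tested, 33.7% were called, 16.6% higher and 17.1% lower. The co-treated libraries lay wholly above the control libraries in 4 of the 9 genes and wholly below in 2, against 23.3% and 24.1% of all genes tested (47.4% in either direction). The median log2 fold change of the 9 genes was 0.12, and that of all genes tested was 0.002. Without factors for composition (library size alone) 3816 genes were called higher and 2065 lower, and on log2(TPM + 1), with TPM a level scaled for transcript length and library total, 4516 and 1339, so the balance of directions depends on the scaling. Under both of these scalings 5 of the 9 genes were still called higher, while 1 and 0 were called lower. Compared with the size of change of all genes, *PSMB9* exceeded 92.4% of them and *HLA-E* 76.8%. *TAP1*, *TAPBP*, *TAP2* and *PSMB8* lay near the middle, at 54.0%, 51.3%, 48.2% and 47.5%, and *B2M* at 33.7%.

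**Figure D1:**
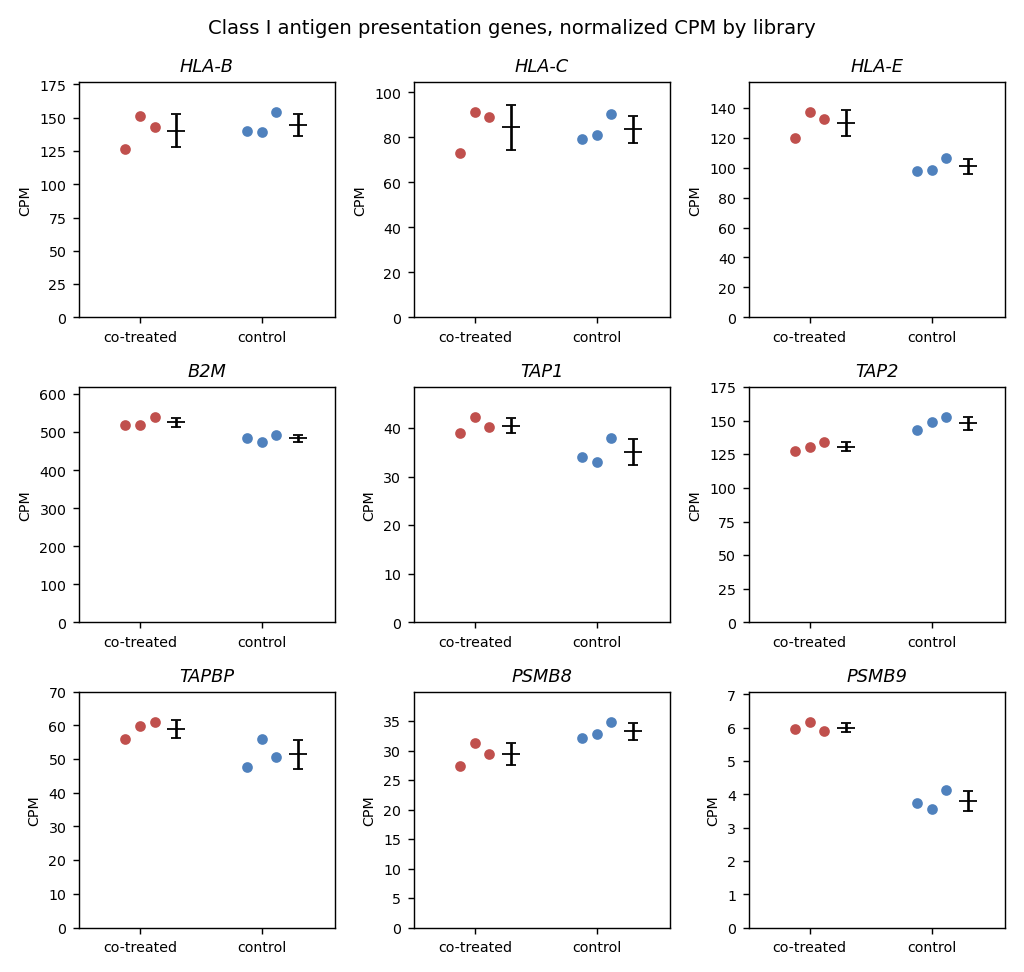
Normalized CPM (y axis, linear, from 0) of the 9 genes in the 3 co-treated (red) and 3 control (blue) libraries. Points are libraries in replicate order and the bars are mean ± SD. The groups are apart in *HLA-E*, *B2M*, *TAP1*, *TAP2*, *PSMB8* and *PSMB9*, and they overlap in *HLA-B*, *HLA-C* and *TAPBP*.

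The libraries held 50569611 to 72204161 estimated counts in co-treated cells and 56521572 to 72309015 in control cells, and the scarcest of the 9 genes, *PSMB9*, had at least 207 counts in each library. The cells carried the markers of the line: *VIM*, *CD44* and *EGFR* summed to 2835 to 3189 TPM in co-treated and 2454 to 2651 TPM in control libraries. *PGR* was at 0 and *ESR1* and *CDH1* were under 0.1 TPM in every library, while *ERBB2* was at 33.3 to 37.4 TPM in co-treated and 28.3 to 29.9 TPM in control libraries. Leukocytes are among the other cells rich in class I genes. Of 8 leukocyte markers, 0 reached 1 TPM, *PTPRC* was at 0, and their sum was 0.151 to 0.655 TPM in co-treated and 0.188 to 0.608 TPM in control libraries. The 5 class II presentation genes summed to 0.395 to 0.715 TPM in co-treated and 0.180 to 0.440 TPM in control libraries. Of the 4 fibroblast markers only *COL1A1* reached 1 TPM, at 6.79 to 7.30 TPM in co-treated and 7.32 to 9.24 TPM in control libraries, and the 3 endothelial markers summed to under 1 TPM in each library. In bulk libraries a change in the make-up of the cells and a change in RNA per cell cannot be told apart.

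Per length, the levels spanned a wide range. On the TPM scale *B2M* was the most abundant of the 9, at 1226 ± 49.2 TPM in co-treated and 1069 ± 12.3 TPM in control cells (SD, n = 3 each), and ranked 114 among 25945 genes with any signal. The heavy chains came next. *HLA-B* was at 212 ± 16.5 TPM in co-treated and 199 ± 7.45 TPM in control cells, *HLA-C* at 127 ± 13.2 and 115 ± 5.97 TPM, and *HLA-E* at 113 ± 6.43 and 81.9 ± 3.24 TPM. Below them *PSMB8* had 56.3 ± 3.43 TPM in co-treated and 58.0 ± 1.61 TPM in control cells, and *TAP2* had 54.6 ± 0.529 and 56.7 ± 1.21 TPM. *TAPBP* had 40.1 ± 1.16 TPM in co-treated and 32.0 ± 2.70 TPM in control cells, and *TAP1* had 35.1 ± 1.33 and 27.6 ± 1.47 TPM. *PSMB9* was the scarcest, at 13.7 ± 0.416 TPM in co-treated and 7.90 ± 0.457 TPM in control cells. The order was the same in both groups. The libraries of *PSMB8* and *TAP2* overlapped in both groups, and those of *HLA-C* and *HLA-E* overlapped in co-treated cells.

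The immunoproteasome subunits differed in opposite directions. *PSMB9* (Gene ID 5698, chromosome 6, 32854192 to 32859851, GRCh38) encodes the subunit that takes the place of PSMB6. It had 5.95, 6.16 and 5.90 CPM in co-treated replicates 1, 2 and 3, against 3.73, 3.55 and 4.12 CPM in control replicates 1, 2 and 3. All co-treated libraries lay above all control libraries, and the gap between the groups was wider than the spread within either. This is a log2 fold change of 0.66 ± 0.10, with an edgeR adjusted p of 0.000588. *PSMB9* was called in every alternative tried, with log2 fold changes of 0.61 to 0.78.

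*PSMB8* (Gene ID 5696, chromosome 6, 32840717 to 32844679) encodes the subunit that takes the place of PSMB5. It had 27.5, 31.3 and 29.4 CPM in co-treated libraries, against 32.1, 32.9 and 34.8 CPM in control libraries. The groups did not overlap, although co-treated replicate 2 and control replicate 1 lay close together. The log2 fold change was -0.18 ± 0.06, with an edgeR adjusted p of 0.0484, just inside the threshold. This call did not hold under most alternatives. It was lost with TMM factors (adjusted p 0.0507), with library size alone (0.160), with a length trend removed (0.284) and on log2(TPM + 1) (0.559), and in 5 of the 6 fits without a library. *PSMB8* also shares 24.3% of its 50-base words with the antisense gene *PSMB8-AS1*, which had at most 100 counts in a library. Whether strand was used in counting is not stated.

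Both immunoproteasome subunits stood against a lower level of the standard subunits. *PSMB6*, which *PSMB9* replaces, had 93.2, 101 and 108 CPM in co-treated libraries, against 123, 129 and 139.8 CPM in control libraries. Its log2 fold change was -0.37 ± 0.06, with an edgeR adjusted p of 0.00119. *PSMB5* and *PSMB7* were lower as well, with log2 fold changes of -0.33 and -0.42 and edgeR adjusted p of 0.00147 and 0.000319. All 3 calls held in every alternative. *PSMB10*, the third immunoproteasome subunit, fell by 0.51 on the log2 scale, with an edgeR adjusted p of 0.0148, a call that was lost without control replicate 3 and on the TPM scales.

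Set against its standard partner on the TPM scale, *PSMB9* made up 4.91%, 4.75% and 4.25% of *PSMB9* plus *PSMB6* in co-treated libraries, against 2.40%, 2.18% and 2.34% in control libraries. *PSMB8* made up 12.4%, 12.9% and 11.8% of *PSMB8* plus *PSMB5* in co-treated libraries, against 11.1%, 11.5% and 11.1% in control libraries. Both shares were higher in each co-treated library than in any control library (exact two-sided permutation test, p = 0.1, which is the smallest p that 3 against 3 libraries allow). The share of *PSMB8* was thus higher while *PSMB8* itself was not. On the TPM scale *PSMB9* lay wholly above and *PSMB6* wholly below the control libraries. The separation of the *PSMB9* share follows from that and adds no support. For *PSMB10* and *PSMB7* the groups overlapped, at 7.91% ± 1.09 in co-treated and 8.36% ± 1.13 in control cells (SD, n = 3 each, exact permutation p = 0.7). By transcript level the standard subunits were the major form in every library of both groups.

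**Figure D2:**
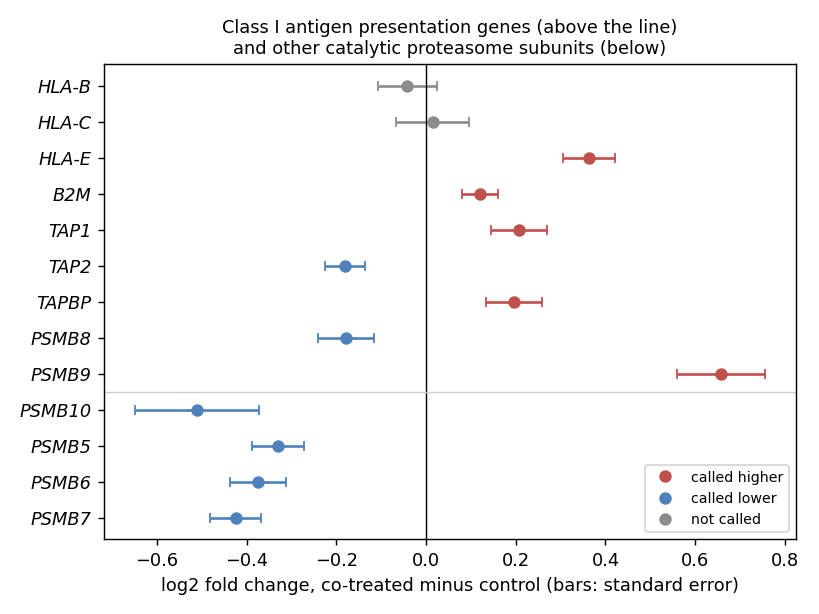
Log2 fold change (x axis, co-treated minus control, from edgeR) of the 9 genes, above the line, and of the other 4 catalytic proteasome subunits, below it. Bars are standard errors, and colours mark genes called higher (red), called lower (blue) or not called (grey). *PSMB9* stands farthest to the right at 0.66, and *PSMB5*, *PSMB6*, *PSMB7* and *PSMB10* lie between -0.33 and -0.51. The sign of *HLA-B* turned under several scalings, among them library size alone and TPM.

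The subunits of the peptide transporter also differed in opposite directions. *TAP1* (Gene ID 6890, chromosome 6, 32845209 to 32853704) had 39.0, 42.2 and 40.2 CPM in co-treated libraries, against 34.1, 33.0 and 38.0 CPM in control libraries. Co-treated libraries lay above control libraries, by about 1 CPM at the closest pair. *TAP1* thus had a log2 fold change of 0.21 ± 0.06, with an edgeR adjusted p of 0.0256. Leaving out co-treated replicate 2 or 3, or control replicate 1 or 2, ended the call (adjusted p 0.0629 to 0.102). *TAP1* shares 15.0% of its 50-base words with other genes, mostly with *PSMB8-AS1*. *PSMB9* shares 9.94%, in words that both *PSMB8* and *PSMB8-AS1* hold, and *B2M* shares none.

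*TAP2* (Gene ID 6891, chromosome 6, 32821833 to 32838770) had 127, 130.0 and 134 CPM in co-treated libraries, against 143, 149 and 152 CPM in control libraries. Here the order was turned round, with every co-treated library below every control library. The log2 fold change was -0.18 ± 0.04, with an edgeR adjusted p of 0.00935. This call held without each library in turn. On log2(TPM + 1) the difference was -0.05 (limma adjusted p 0.313) and was not called. The median log2 fold change of all genes was itself higher on the TPM scales, at 0.09 on log2(TPM + 1) and 0.12 on log2(TPM + 0.1), and relative to that median *TAP2* lay at -0.14 and -0.18. On log2(TPM + 1) without a filter, where the median was 0.03, it lay at -0.08. *TAP2* shares 32.7% of its 50-base words with an overlapping entry of the GENCODE annotation, *AL669918.1*. The transcript table lists no other gene that overlaps *TAP2*, and whether shared reads affected its counts was not tested.

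The TPM ratio of *TAP1* to *TAP2* was 0.635, 0.674 and 0.620 in co-treated libraries, against 0.492, 0.459 and 0.513 in control libraries. Every co-treated ratio was higher than every control ratio (exact two-sided permutation test, p = 0.1, the smallest possible). On the TPM scale *TAP1* lay wholly above and *TAP2* wholly below the control libraries. The separation of the ratio follows from that and adds no support. *TAPBP* (Gene ID 6892, chromosome 6, 33299694 to 33314387), the bridge between the transporter and the heavy chain, had 55.9, 59.9 and 60.9 CPM in co-treated libraries, against 47.5, 55.9 and 50.7 CPM in control libraries. The groups met at co-treated replicate 1 and control replicate 2, which lay at the same rounded value. The log2 fold change was 0.20 ± 0.06, with an edgeR adjusted p of 0.0340. The call ended without co-treated replicate 2 or 3 or control replicate 1 or 3 (adjusted p 0.0894 to 0.136).

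*TAP1* and *PSMB9* lie head to head on chromosome 6, with 487 bases between their starts, and both were called higher. *TAP2*, a neighbour in the same cluster, was called lower. The RefSeq sequences upstream of these starts (GRCh38.p14) are given here so that these neighbours can be set side by side, together with that of *B2M*, which lies on chromosome 15. Each runs 5′ to 3′ on the strand of its gene, from 250 bases before the annotated start. For *TAP2* and *B2M* it stops before a further annotated start, which leaves 219 and 225 bases. Capitals mark the core of the interferon-stimulated response element, AANNGAAA, on either strand.
TAP1, chr6:32853705-32853954, minus strand: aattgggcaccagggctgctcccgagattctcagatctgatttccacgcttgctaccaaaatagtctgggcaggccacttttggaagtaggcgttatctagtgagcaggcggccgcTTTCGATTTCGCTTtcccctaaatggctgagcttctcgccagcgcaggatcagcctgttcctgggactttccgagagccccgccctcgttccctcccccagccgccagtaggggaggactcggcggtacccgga
PSMB9, chr6:32853942-32854191, plus strand: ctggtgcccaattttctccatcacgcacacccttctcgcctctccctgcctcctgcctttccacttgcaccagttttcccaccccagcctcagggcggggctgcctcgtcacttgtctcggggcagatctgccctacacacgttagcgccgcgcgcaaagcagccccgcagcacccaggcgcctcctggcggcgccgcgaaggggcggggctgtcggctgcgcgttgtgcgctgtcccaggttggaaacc
TAP2, chr6:32838771-32838989, minus strand: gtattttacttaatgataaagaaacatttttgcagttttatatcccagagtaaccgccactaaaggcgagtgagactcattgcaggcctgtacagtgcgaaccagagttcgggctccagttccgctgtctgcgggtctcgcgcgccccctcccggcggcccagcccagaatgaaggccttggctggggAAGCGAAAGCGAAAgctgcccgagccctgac
B2M, chr15:44711267-44711491, plus strand: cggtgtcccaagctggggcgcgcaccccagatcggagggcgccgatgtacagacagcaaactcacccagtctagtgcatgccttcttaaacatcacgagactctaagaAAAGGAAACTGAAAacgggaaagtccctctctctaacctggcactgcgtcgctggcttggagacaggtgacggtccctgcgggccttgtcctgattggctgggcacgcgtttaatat

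The sequences upstream of *TAP1* and *PSMB9* overlap by 13 bases. The core motif was found 2 times at *TAP1*, the first beginning at -134 from the start, and 0 times in the window of *PSMB9*. These *TAP1* matches lie between the starts of *TAP1* and *PSMB9*. They are thus also upstream of *PSMB9*, but beyond the 250 bases of its window. A second annotated start of *TAP1*, inside the gene, had the core 0 times in its window. The core was found 2 times at *TAP2*, the first beginning at -62, and 2 times at *B2M*, the first beginning at -142. In the RefSeq windows from 250 bases before to 50 after a start, AANNGAAA occurs in 22.8% of 35116 windows. A longer form, which has GAAA on both sides of a further NN and holds the core within it, occurs in 3.57% of them. Of the 10 such windows of these genes, which cover 8 of the 9 genes, 7 held the core and 5 the longer form. *TAPBP* held both, *HLA-B* and *HLA-C* held the core 1 time each, and *PSMB8* held both at its second start and neither at its first. *HLA-E* is named only. The windows of *HLA-B* and *HLA-C*, from 250 bases before to 50 after the start, were 88.5% identical when aligned. A match describes letters, and the genes called higher and those called lower both included windows with and without it.

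Among these 3 heavy chains *HLA-E* alone was called. It encodes the non-classical molecule that presents leader peptides of other class I chains to the receptor NKG2A on natural killer cells. *HLA-E* (Gene ID 3133, chromosome 6, 30489508 to 30494194) had 119.9, 137 and 132 CPM in co-treated libraries, against 97.9, 98.1 and 106 CPM in control libraries. All co-treated libraries lay above all control libraries. The log2 fold change was 0.36 ± 0.06, with an edgeR adjusted p of 0.000847, and the gene was called in every alternative fitted to it on its own.

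The classical chains overlapped between the groups. *HLA-B* (Gene ID 3106, chromosome 6, 31353875 to 31357179) had 127, 151 and 143 CPM in co-treated libraries, against 139.8, 139 and 154 CPM in control libraries. Its log2 fold change was -0.04 ± 0.07, with an edgeR adjusted p of 0.663. The sign turned positive with library size alone (0.02), with length or GC trends removed and on TPM (0.09), without a call. *HLA-C* (Gene ID 3107, chromosome 6, 31268749 to 31272092) had 72.9, 91.1 and 89.1 CPM in co-treated libraries, against 79.1, 81.1 and 90.4 CPM in control libraries. Its log2 fold change was 0.02 ± 0.08, with an edgeR adjusted p of 0.905, and its sign turned negative without co-treated replicate 2 or 3 or control replicate 1 or 2. Both chains were lowest of the co-treated libraries in replicate 1 and highest of the control libraries in replicate 3, and so was *HLA-E*.

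On the TPM scale *HLA-E* made up 25.7%, 24.6% and 24.8% of the sum of *HLA-B*, *HLA-C* and *HLA-E* in co-treated libraries, against 20.6%, 20.9% and 20.6% in control libraries. The groups were apart (exact two-sided permutation test, p = 0.1, the smallest possible). Class I genes resemble each other, and reads can be assigned to the wrong one. The share of 50-base words held by another HLA gene was 2.12% for *HLA-B*, 6.17% for *HLA-C* and 4.66% for *HLA-E*. Over all other genes the shares were 27.3%, 6.17% and 5.76%, and that of *HLA-B* was mostly with the GENCODE entry *AL671883.2* (25.3%). These are exact matches within reference transcripts. The alleles carried by this line, and reads aligned with mismatches, were not examined. When the 11 class I genes and pseudogenes of the table were summed to a single entry, the log2 fold change was 0.08 with an edgeR adjusted p of 0.403. The same sum without *HLA-E* gave 0.003 with an adjusted p of 0.978.

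The light chain *B2M* (Gene ID 567, chromosome 15, 44711492 to 44718145), which all class I heavy chains need to reach the surface, had 519, 518 and 539 CPM in co-treated libraries, against 484, 475 and 491 CPM in control libraries. All co-treated libraries lay above all control libraries. For *B2M* this gave a log2 fold change of 0.12 ± 0.04, with an edgeR adjusted p of 0.0408. Without co-treated replicate 2 or 3, or any of the 3 control replicates, the call was lost (adjusted p 0.0613 to 0.153). The ratio of *B2M* to the sum of these 3 heavy chains was 2.73 ± 0.242 in co-treated and 2.71 ± 0.131 in control cells on the TPM scale (SD, n = 3 each, exact permutation p = 1.0), with overlapping groups.

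**Figure D3:**
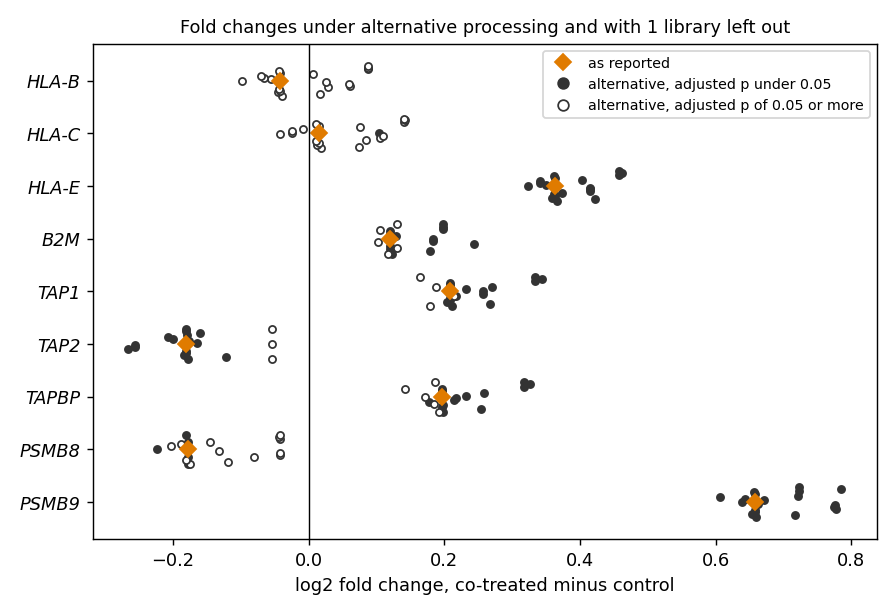
Log2 fold change (x axis, co-treated minus control) of each of the 9 genes as reported (orange diamonds) and under the alternative settings and left-out libraries (circles, filled where the adjusted p was under 0.05). The summed entries of class I genes are not drawn. *PSMB9* and *HLA-E* stay filled in all settings drawn, at 0.61 or more and 0.32 or more. *PSMB8* is mostly open and *HLA-B* and *HLA-C* fall on both sides of 0.

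The transcript table was used to ask whether the mix of annotated transcripts of a gene differed between the groups. It was tested with diffSplice of limma after voom, over 9961 genes with several transcripts, of which 1.90% were called. Of the 6 genes that could be tested, 1 was called, *HLA-E*, with an adjusted p of 0.0330. The curated transcript NM_005516 held 32.1%, 39.4% and 43.5% of the estimated counts of *HLA-E* in co-treated libraries, against 47.5%, 78.9% and 86.9% in control libraries. Co-treated libraries were all below control libraries, but control replicate 1 lay much closer to the co-treated libraries than to the other control libraries (usage log2 change -2.24, limma adjusted p 0.0174; exact permutation p = 0.1). The predicted variant XM_017010807 held 40.0%, 31.3% and 26.5% in co-treated libraries, against 23.1%, 9.18% and 4.05% in control libraries (limma adjusted p 0.116). The call on the mix held without control replicate 1 (adjusted p 0.000414) and was lost without any of the other 5 libraries (0.110 to 0.215). These shares are estimates that apportion reads among overlapping transcripts.

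*B2M* and *TAPBP* showed single libraries apart from their group. The noncoding *B2M* transcript XR_002957658 held 7.15%, 6.79% and 0.185% in co-treated libraries, against 0.305%, 0.307% and 0.294% in control libraries. The first 2 co-treated libraries were thus high, and the third lay below the control libraries. The mix of *B2M* was not called (limma adjusted p 0.604), and without co-treated replicate 3 it was (1.15e-06). The main transcript NM_004048 held at least 86.4% in each library. In *TAPBP*, NM_003190 held 9.13%, 9.37% and 41.4% in co-treated libraries, against 13.7%, 14.7% and 8.38% in control libraries, so co-treated replicate 3 stood apart (gene-level adjusted p 0.969).

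The mix of the other genes with several transcripts was not called. *TAP1* was carried to 98.3% ± 1.29 in co-treated and 99.1% ± 0.878 in control cells by NM_000593, and *TAP2* to 98.6% ± 0.150 and 98.3% ± 0.123 by NM_001290043 (SD, n = 3 each). *PSMB8* was divided between NM_148919, at 53.4% ± 2.30 in co-treated and 52.1% ± 4.66 in control cells, and NM_004159, which begins at a start farther upstream. *HLA-B*, *HLA-C* and *PSMB9* have 1 transcript each in the table.

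**Figure D4:**
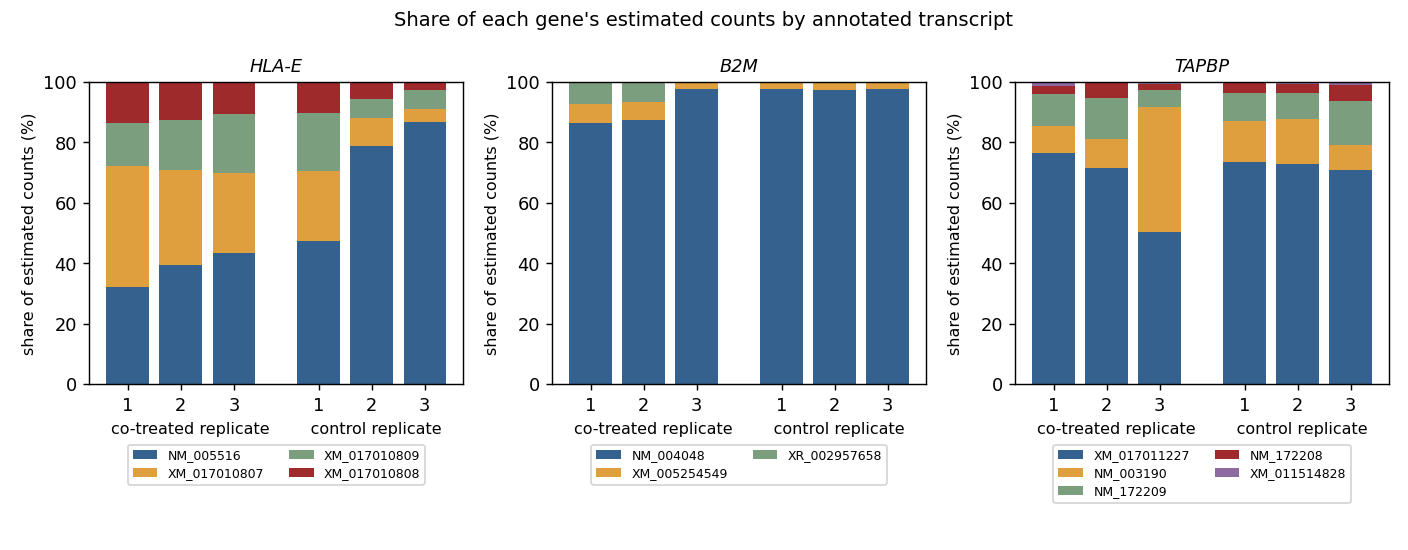
Share of each gene's estimated counts by annotated transcript (y axis, percent) in each library, co-treated left of control, for *HLA-E*, *B2M* and *TAPBP*. The curated *HLA-E* transcript takes 32.1% to 43.5% in co-treated and 47.5% to 86.9% in control libraries. The third *B2M* transcript is visible in co-treated replicates 1 and 2, and a large share of NM_003190 in co-treated replicate 3 of *TAPBP*.

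Around these 9 genes, 70 further genes of the pathway were read from the same fit. Of the 66 that were tested, 17 were called higher and 16 lower, with a median log2 fold change of 0.03, against 16.6% called higher and 17.1% called lower of all genes tested. On log2(TPM + 1) these counts were 28 and 5. Of the 33 called genes, 10 were called in every alternative, 12 lost the call when a library was left out and 13 lost it on a TPM scale. The 10 were *PSME1*, *MICA*, *STAT2*, *OAS1* and *GBP2*, which were higher, and *CALR*, *RAET1E*, *PSMB5*, *PSMB6* and *PSMB7*, which were lower.

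Of 19 other processing and loading genes tested, 3 were called higher and 7 lower (16.6% and 17.1% of all genes). *PSME1*, a subunit of the activator cap that opens the proteasome, had 95.7, 85.8 and 88.2 CPM in co-treated libraries, against 75.2, 74.4 and 77.5 CPM in control libraries (log2 fold change 0.25, edgeR adjusted p 0.00363). *CALR*, the chaperone calreticulin of the peptide-loading complex, had 582, 607 and 600.0 CPM in co-treated libraries, against 764, 744 and 815 CPM in control libraries (log2 fold change -0.38, edgeR adjusted p 0.000174). In both genes the groups were clearly apart. *ERAP1*, which trims peptides in the endoplasmic reticulum, was higher by 0.20 and *PDIA3*, the disulphide isomerase bound to tapasin, was lower by 0.20 on the log2 scale (edgeR adjusted p 0.0101 and 0.00799). The first of these calls was lost with the length trend removed and the second on the TPM scales.

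Of 9 class I-like molecules tested, 2 were called higher and 1 lower, a share near the 33.7% of all genes called. *MICA* and *MICB* encode stress ligands of the activating receptor NKG2D. *MICA* had 52.7, 54.1 and 55.4 CPM in co-treated libraries, against 48.0, 43.8 and 47.3 CPM in control libraries (log2 fold change 0.22, edgeR adjusted p 0.00701). *MICB* was higher by 0.17 on the log2 scale (edgeR adjusted p 0.0145), a call that was lost without co-treated replicate 2 or control replicate 2. *RAET1E*, another ligand of NKG2D, had 7.67, 8.25 and 8.23 CPM in co-treated libraries, against 16.5, 17.9 and 18.5 CPM in control libraries (log2 fold change -1.14, edgeR adjusted p 4.88e-06). These called ligands of the same receptor therefore differed in opposite directions. The 6 other molecules tested, further ligands of NKG2D among them, were not called.

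Of 20 regulators, 6 were called higher and 4 lower (16.6% and 17.1% of all genes). The transactivator *NLRC5* had 16.2, 17.0 and 15.1 CPM in co-treated libraries, against 18.5, 18.2 and 18.7 CPM in control libraries. Its log2 fold change of -0.20 (edgeR adjusted p 0.0355) was not called in 5 of the 6 fits without a library, nor on TPM. *IRF1* was at 15.1 ± 0.575 CPM in co-treated and 14.4 ± 1.22 CPM in control cells (SD, n = 3 each, edgeR adjusted p 0.501). The kinase *JAK2*, which acts below the interferon gamma receptor, had 20.3, 17.5 and 15.5 CPM in co-treated libraries, against 12.7, 14.2 and 12.4 CPM in control libraries (log2 fold change 0.44, edgeR adjusted p 0.00629). *IFNGR1*, a chain of that receptor, was higher by 0.23 (edgeR adjusted p 0.00968). Both lost the call on log2(TPM + 1) without a filter, and *JAK2* was at 0.26 with GC and length trends removed. *NFYA* and *NFYC*, subunits of the factor that binds the CCAAT box, were higher by 0.18 and lower by 0.24 on the log2 scale (edgeR adjusted p 0.00909 and 0.00240). The call on *NFYA* was lost with length or GC and length trends removed, and that on *NFYC* on the TPM scales.

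Of 15 interferon response genes, 6 were called higher and 1 lower, with a median log2 fold change of 0.07 (16.6% and 17.1% of all genes were called higher and lower). *GBP2*, a guanylate-binding protein, had 20.9, 16.6 and 19.1 CPM in co-treated libraries, against 12.9, 10.3 and 10.3 CPM in control libraries (log2 fold change 0.76, edgeR adjusted p 0.000402). *OAS1*, a sensor of double-stranded RNA, was higher by 0.45 and *STAT2*, a factor of type I interferon signalling, by 0.26 (edgeR adjusted p 0.00164 and 0.00815). *IRF7*, *IFIT2* and *UBE2L6* were also called higher, and each lost the call without at least 3 of the libraries in turn. *OAS3* was lower by 0.14 (edgeR adjusted p 0.0236), a call that was lost in 4 of the 6 fits without a library, on the TPM scales and with library size alone. The remaining 8 genes of the list were not called.

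Across the 6 libraries, the mean standardised level of the 9 genes was closest in pattern to *GPX4*, the glutathione peroxidase that repairs lipid peroxides, with a Pearson correlation of 0.994 among 10847 genes of at least 5 CPM. *MAPKAPK2*, *RNF40*, *HTRA2* and *UNC45A* followed, at 0.993, 0.992, 0.991 and 0.988. The points share their libraries and the correlations are a description. None of these 5 genes was called (edgeR adjusted p 0.247 to 0.514). The mean level of the 9 genes was low in control replicates 1 and 2 and co-treated replicate 1, and high in co-treated replicates 2 and 3 and control replicate 3.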

How the data were processed

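RNA was measured in 6 MDA-MB-231/RR libraries, grouped by their titles into 3 co-treated and 3 control. The authors deposited a gene table and a transcript table. The submitters' processing notes name Trimmomatic 0.38, HISAT2 2.1.0, Bowtie2, SAMtools 1.9, StringTie 2.1.3b and GRCh38, without their roles. The values headed as read counts were taken as estimated counts, deposited as whole numbers. Each low value equalled FPKM times length, times a factor fitted per library, within 1 count. Read counts would pass this check as well, so it cannot tell the 2 apart. Each of the 46427 genes was the sum of its transcripts. TPM, per the file headers, served for levels, ratios and an alternative test, and the deposited FPKM values only for the check of units. The 6 gene FPKM columns were not used. The column prefix Mo was read as the 2 compounds, which the labels do not spell out. Kit and strand setting are not given in the sources used.

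Genes were kept with filterByExpr (minimum count 10) and tested with edgeR 4.0.16 in R 4.3.3 (quasi-likelihood test; relative log expression, the normalization in the labels' protocols; threshold 0.05 after Benjamini-Hochberg adjustment over all genes). Transcript mix was tested with voom and diffSplice of limma 3.58.1. Ratios had exact permutation tests in SciPy 1.17.1. Every script that tests many genes was tested on simulated data. Errors are SD over 3 libraries, or standard errors of the fit. Within a group, libraries differed by more than sampling noise (chi-square over its degrees of freedom, 11.6 to 19.5).

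The alternatives were DESeq2 1.42.0, voom, TMM factors or library size alone in place of relative log expression, a minimum count of 50 or no count filter, length and GC trends removed (lowess, GC content found for 87.8% of tested genes), limma on log2(TPM + 1) and log2(TPM + 0.1), the replicate block, each library left out and the class I genes summed. The sum without *HLA-E* and the test of the curated *HLA-E* share were chosen after seeing the data. The ratios and their permutation tests were not among the planned tests. The 9 genes and the lists of 70 others were chosen with earlier results of these data known. All 9 genes are named, with called genes of the lists, 5 regulators and standard subunits whatever they did, and the 5 genes of most similar pattern. The genes under the filter named in the closing section were added to these. A further gene of the rule is not reported here. Upstream sequences are RefSeq's (GRCh38.p14). Motifs were searched on both strands. Shared words are 50-base words of GENCODE v29 transcripts. Figures were drawn with matplotlib 3.10.9.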

Additional observations from a re-analysis of the deposited data

How the results depend on the processing

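*PSMB9* was called in all alternatives, and *HLA-E* in all but the summed entry of class I genes (0.08, adjusted p 0.403). *TAP2* lost its call only on the 3 TPM settings. Of the 9 genes, 7 were called (5 higher, 2 lower). Leaving out each library in turn gave 3 to 6 calls, 2 to 5 higher and 1 to 2 lower. The number called lower was 1 with TMM factors, library size alone, no count filter, the length trend removed, and the GC and length trends removed with or without the replicate block, and it was 0 on log2(TPM + 1), log2(TPM + 0.1) and log2(TPM + 1) without a filter. With no count filter 4 were called, 3 of them higher. The median of the 9 genes, 0.12, became 0.18 with library size alone, with the length trend removed and with the GC and length trends removed (0.18 with the block too), and 0.20 on the 3 TPM settings, where the median of all genes was 0.09, 0.12 and 0.03. The cause of these shifts was not tested.

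Over all genes, 4516 were called higher and 1339 lower on log2(TPM + 1), 4490 and 1338 on log2(TPM + 0.1), and 968 were called lower on log2(TPM + 1) without a filter. Without each library in turn 4223 to 4820 genes were called. Of the 70 further genes, 28 were called higher and 5 lower on log2(TPM + 1), 28 and 5 on log2(TPM + 0.1), and 5 lower without a filter. *HLA-B* changed sign with library size alone (0.0171), the length trend removed (0.0278), the GC and length trends removed (0.0601, and 0.0597 with the block), log2(TPM + 1) (0.0870 with and without a filter), log2(TPM + 0.1) (0.0874) and the class I sums (0.0790, and 0.00325 without *HLA-E*). Without each library in turn it ranged between -0.0979 and 0.0260. *HLA-C* changed sign without each of 4 libraries, with a range of -0.0422 to 0.109, and was called with GC and length trends removed and the replicate block (0.10, adjusted p 0.0271).

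The labels do not say whether the replicate numbers pair the libraries. The deviations of same-numbered libraries correlated at 0.069, 0.0004 and -0.036, which with 3 libraries in a group cannot settle it. With the replicate number as a block, 6367 genes and 7 of the 9 were called, against 5578 genes without it. Transcript mix was called in 189 genes, in 105 with the block, in 306 with a mean count of 1 in place of the filter, and in 116 to 217 without each library in turn. The call on *HLA-E* mix was lost with the block (adjusted p 0.0763).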

Other observations

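Of the 70 further genes, *CD1D*, *FCGRT*, *HLA-G* and *ULBP1* did not pass the filter on low counts and were named after their values were seen. *HLA-G*, a non-classical heavy chain, was listed with 36 estimated counts in control replicate 1 and 0 in the other 5 libraries. *CD1D* was at 0 in all 6 libraries, and *FCGRT* and *ULBP1* had at most 7 counts in any. *PSMB8-AS1*, which overlaps *PSMB8* and *TAP1*, had 61, 41 and 100 counts in co-treated libraries and 36, 48 and 46 in control libraries.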
